A study of Bos taurus with 4 samples.

Results

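The genes described here are interferon-induced genes in a muscle of the hind leg of bulls, the semitendinosus. The 7 symbols listed as members were MX1, MX2, ISG15, IFI6, DHX58, IRF1 and B2M. A member was measured where the RefSeq accession of a probe for a bovine transcript belonged to its symbol, and the brightest such probe stood for the gene. Of the 7 members, 5 had a probe, and IFI6 and IRF1 matched none and were not analysed here. Each of the 5 had 1 probe, printed as 2 spots on every array, among 7788 genes with a named probe and 6376 genes whose signal was high enough to be kept.

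The samples were taken at slaughter from 15-month-old bulls of the Limousin (LIM) breed, kept for beef, and of the Holstein-Friesian (HF) breed, kept for milk, with 4 bulls per breed. By the sample titles, each of 4 two-colour arrays carried 1 LIM bull labelled with Cy5 and 1 HF bull labelled with Cy3. An array is thus a pair of bulls, and all 4 arrays lay on 1 slide. Breed and dye always went together and cannot be told apart. Whole tissue was measured, so more cells of a type and more RNA per cell cannot be told apart either.

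Interferons are secreted when a cell senses viral nucleic acid, or, in the case of interferon gamma, by activated lymphocytes. They bind receptors whose kinases activate STAT and IRF transcription factors, and these switch on a large set of genes. MX1 and MX2 encode dynamin-like GTPases that block viruses, and ISG15 encodes a ubiquitin-like protein that is attached to other proteins. DHX58 encodes LGP2, a helicase that tunes the sensing of viral RNA, and B2M encodes beta-2 microglobulin, the light chain of MHC class I molecules. MX1 and MX2 are next to each other in the RefSeq gene table, with no other gene listed between them.

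Values below are log2 ratios of LIM signal over HF signal, as the channels were labelled, so 1 means a 2-fold higher signal in the channel labelled LIM. The dye labels set this direction. Of 14 genes given a direction in a list of the main text, 13 were measured here and all 13 had the opposite sign. The paper's qPCR of FST, SIRT1, MSTN, SMAD2, HSPA8, GSK3B and TGFB2, all among these 13, gave the direction of its text. A Western blot in the paper showed less active MSTN protein in both of its beef breeds than in HF bulls. Other genes given a direction in the supplement were not compared. Because of the 13 opposite signs, the bulls are named by the label of their channel, and LIM and HF below are channel labels.

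MX1 had the highest mean ratio of the members and the only adjusted p near the threshold. Its log2 ratio was 1.66, 2.30, 0.32 and 1.85 on arrays 1 to 4, above 0 on every array and lowest on array 3. The mean log2 ratio was 1.53 ± 0.33 (moderated SE, n = 4 arrays), a 2.89-fold higher signal in the channel labelled LIM, with a 95% interval from 0.70 to 2.36 (limma). The adjusted p over all 15855 probes kept was 0.0622, so MX1 did not pass the threshold of 0.05. Its 2 spots differed by at most 0.18 on an array, far less than the 1.98 between array 2 and array 3. Without array 3, the mean log2 ratio of MX1 was 1.94 and limma gave an adjusted p of 0.0479. Array 3 was singled out after its values were seen, and MX1 did not pass without array 1, 2 or 4. MX1 passed under 10 of 19 alternative settings. Among these, processed signals and the series value table gave the same mean, 2.07. Over the 19 settings the adjusted p of MX1 ranged from 0.0212 to 0.211. The methods' t-test, whose call uses the unadjusted p, gave the highest.

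ISG15 varied more between the pairs of bulls than any other member. Its log2 ratio was 2.16, 2.84, -1.09 and 0.86 on arrays 1 to 4. The channel labelled LIM was thus 4.48-fold, 7.15-fold and 1.82-fold brighter than that labelled HF on arrays 1, 2 and 4, while on array 3 it had 0.471 of the HF signal. The mean log2 ratio of 1.19 ± 0.66 did not differ from 0 beyond this spread (adjusted p = 0.309 in limma), and its 95% interval ran from -0.47 to 2.86. The difference between duplicate spots was at most 0.19, against 3.92 between the highest and the lowest array. Without array 3 the mean log2 ratio was 1.95, 0.76 higher than with it, and without array 2 it was 0.65.

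DHX58 and MX2 were dim, and their ratios were smaller. DHX58 had log2 ratios of 0.60, 0.57, -0.17 and 0.34 on arrays 1 to 4, again with array 3 below the other arrays. MX2 had 0.47, 0.30, 0.11 and 0.14, above 0 on every array, with its lowest value also on array 3. The means were 0.34 ± 0.15 for DHX58 (adjusted p = 0.218) and 0.26 ± 0.08 for MX2 (adjusted p = 0.133), and neither passed in limma. The signal of MX2 was well above background on 4 of 4 arrays in the channel labelled LIM and on 2 of 4 in that labelled HF, and that of DHX58 on 4 and on 3. The offset of the background correction draws ratios of such dim probes toward 0. With the scanner software's processed signals the mean log2 ratios were 0.86 for MX2 and 0.78 for DHX58, and with these signals neither passed.

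B2M was the brightest member and the only one with a mean ratio below 0. Its log2 ratio was 0.23 and 0.33 on arrays 1 and 2, -1.46 on array 3 and -0.02 on array 4. Array 3 thus set the sign: the mean was -0.23 ± 0.32 over all arrays (adjusted p = 0.685 in limma) and 0.18 without array 3. With each array centred on its median in place of loess the mean log2 ratio of B2M was 0.47, beside a median of 0.35 over all genes kept, so no direction is given for B2M.

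**Figure D1:**
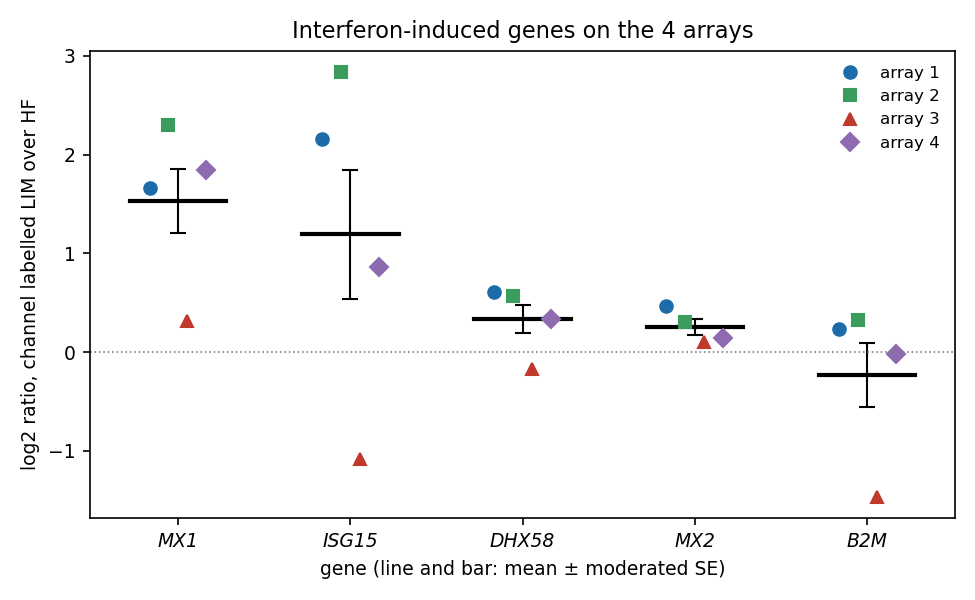
Log2 ratio of LIM signal over HF signal (vertical axis) for the 5 measured genes, with 1 symbol per array, the mean as a line and its moderated SE as a bar. Array 3 is the lowest symbol of every gene, at -1.09 for ISG15 and -1.46 for B2M, and MX1 lies above 0 on all 4 arrays.

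Of the 5 members, 0 passed an adjusted p of 0.05 in limma in either direction. Over all probes kept, 2.96% were called higher and 2.51% lower in the channel labelled LIM. At an unadjusted p under 0.05 in limma, 2 members were higher (MX1 and MX2) and 0 lower, beside 14.3% of all genes kept that were higher and 14.6% that were lower at this p. The methods' t-test with its fold of at least 1.3 called 1 member, MX1, and 0 after Benjamini-Hochberg adjustment. The median of the mean log2 ratios was 0.34 over the 5 members and 0.0029 over all genes kept. The members' median was 0.60, 0.57, -0.17 and 0.34 on arrays 1 to 4. All of these medians of the members are the values of DHX58, a dim probe.

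The ratios of 3 members varied widely between arrays. The SD of the log2 ratio between arrays was 1.73 for ISG15, 0.85 for MX1, 0.83 for B2M, 0.36 for DHX58 and 0.17 for MX2, beside a median SD of 0.21 over all genes kept. Of all genes kept, 99.9% had a smaller SD than ISG15, 98.5% a smaller one than MX1 and 98.4% a smaller one than B2M. The corresponding share was 80.4% for DHX58 and 37.0% for MX2, the dimmest member. Array 3 gave the lowest ratio for 5 of 5 members, and it gave the lowest ratio for 31.8% of all genes kept. It stayed the lowest for all 5 under other background corrections, with processed signals and with median centring or scale normalization. With median centring, however, B2M was at 0.07, 1.22, -0.14 and 0.71 on arrays 1 to 4, with array 3 close to array 1. The size of its drop on array 3 thus depends on the loess step. Array 3 was singled out after these values were seen, and the members share its bulls and its hybridisation.

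**Figure D2:**
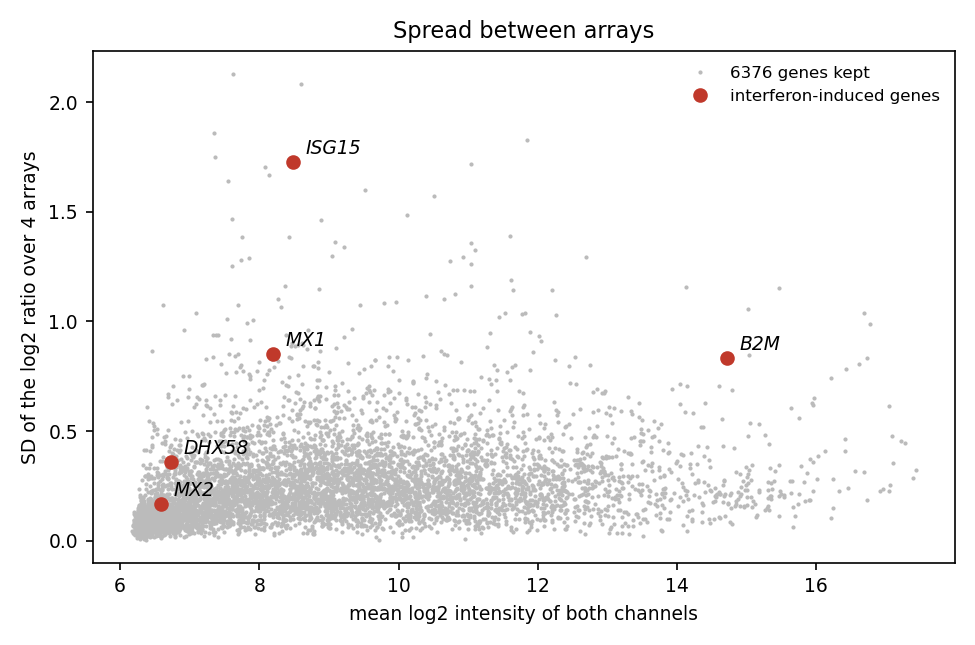
SD of the log2 ratio over the 4 arrays (vertical axis) against the mean log2 intensity of both channels (horizontal axis) for 6376 genes kept, with the 5 interferon-induced genes as large points. ISG15 (SD 1.73), MX1 (0.85) and B2M (0.83) lie near the top of the cloud at their intensity, while MX2 (0.17) is among the dim genes at the left.

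The signals of the separate channels show which bulls were high or low. After normalization within and between arrays, the log2 signal of ISG15 was 10.23, 9.94, 7.09 and 9.09 in the bulls labelled LIM of arrays 1 to 4, against 8.07, 7.11, 8.18 and 8.23 in the bulls labelled HF. The bulls labelled LIM thus ranged over 8.82-fold and those labelled HF over 2.18-fold. The bull labelled LIM of array 3 had the lowest ISG15 signal of the 8 bulls, close to that of the bull labelled HF of array 2. Within the channel labelled LIM the order was the same before normalization, with a median brightness of ISG15 of 1788, 1424, 187 and 846.5 on arrays 1 to 4 beside local backgrounds of 35.5 to 38.25. In the channel labelled HF the brightness was 159.5, 61.5, 146 and 170.5 beside backgrounds of 28.5 to 29.5, with arrays 1 and 3 in the other order than after normalization. The dyes differ in brightness, so these unnormalized values are not compared between channels.

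MX1 showed the same split among the bulls labelled LIM. Its log2 signal was 9.79, 9.63, 7.32 and 9.17 in the bulls labelled LIM of arrays 1 to 4, against 8.13, 7.33, 7.004 and 7.32 in the bulls labelled HF. The 3 bulls labelled LIM of arrays 1, 2 and 4 were above all 4 bulls labelled HF, and the one of array 3 lay inside the range of the bulls labelled HF, so the groups overlapped. The range was 5.54-fold among the bulls labelled LIM and 2.18-fold among those labelled HF.

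DHX58 had a log2 signal of 7.16, 7.19, 6.37 and 6.89 in the bulls labelled LIM, against 6.56, 6.61, 6.54 and 6.56 in the bulls labelled HF. The bull labelled LIM of array 3 was again the lowest, below all 4 bulls labelled HF, and the other 3 bulls labelled LIM were above all of them. MX2 had 7.05, 6.75, 6.54 and 6.59 in the bulls labelled LIM, against 6.58, 6.44, 6.44 and 6.45 in the bulls labelled HF. The signals of both genes in the channel labelled HF were near background and are compressed by the offset, so the narrow range there, 1.05-fold for DHX58 and 1.10-fold for MX2, is no measure of how alike those bulls were.

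For B2M the bulls of array 3 stood at opposite ends of their groups after normalization. Its log2 signal was 14.55, 14.75, 14.04 and 15.06 in the bulls labelled LIM of arrays 1 to 4, against 14.32, 14.42, 15.50 and 15.08 in the bulls labelled HF. In these normalized values the bull labelled LIM of array 3 had the lowest and the bull labelled HF of array 3 the highest B2M signal of the 8 bulls. Before normalization array 3 was also the lowest in the channel labelled LIM, with a median brightness of 32501. In the channel labelled HF array 4 was then the brightest, at 22334.8 against 18787.5 on array 3, so the HF end depends on the normalization. The range was 2.04-fold among the bulls labelled LIM and 2.26-fold among those labelled HF.

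**Figure D3:**
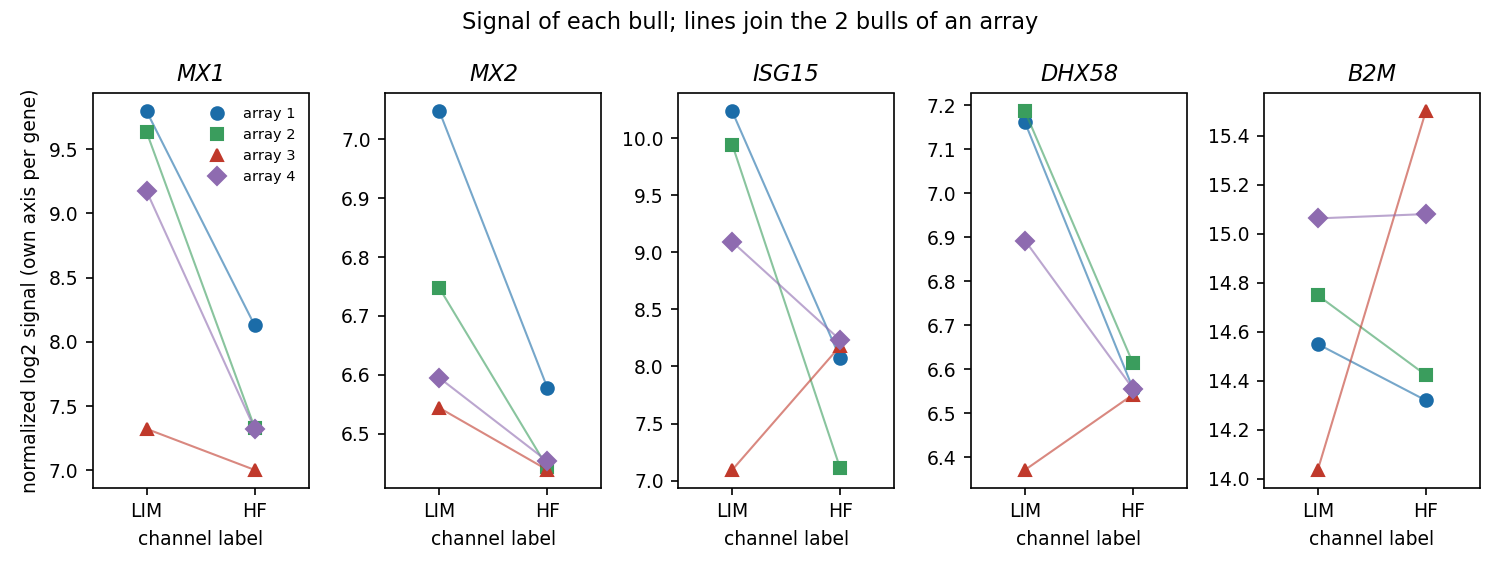
Normalized log2 signal of each bull (vertical axis, separate for each gene) in the channel labelled LIM, at the left of each panel, and in the channel labelled HF, at the right, with a line joining the 2 bulls of an array. For MX1, ISG15 and DHX58 the bull labelled LIM of array 3 lies far below the other 3 bulls with that label. For B2M both bulls of array 3 lie at the ends, at 14.04 for the label LIM and 15.50 for the label HF.

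Other genes of the interferon pathway were taken from lists of its parts, chosen by function. Of 117 such genes besides the members, 49 were measured and kept, and in limma 1 was higher and 1 lower in the channel labelled LIM, while 47 did not pass. At an unadjusted p under 0.05, 2 were higher and 10 lower, where the shares over all genes kept were the 14.3% and 14.6% given above. Their median log2 ratio was -0.14, with 0.08, 0.10, -0.54 and -0.18 on arrays 1 to 4, beside 0.0092, 0.0064, -0.02 and 0.02 over all genes kept. On array 3, 37 of the 49 genes (75.5%) had their lowest ratio of the 4 arrays, and 26.5% had a log2 ratio under -1, against 31.8% and 3.34% of all genes kept.

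Among receptors, 0 of 3 measured genes passed. IL10RB, a shared chain of the interleukin-10 and lambda interferon receptors, had a mean log2 ratio of -0.25 ± 0.08, IFNGR1, the ligand-binding chain of the interferon gamma receptor, -0.30 ± 0.14, and IFNAR2, a chain of the type I receptor, -0.40 ± 0.18. None of 6 signalling and transcription factors passed either. The kinase TYK2 had a mean log2 ratio of -0.43 ± 0.16, and IFI35 and NMI, interferon-induced proteins that bind each other, had -0.49 ± 0.13 and -0.46 ± 0.18. With median centring the mean log2 ratios of IL10RB, IFNGR1, TYK2, IFI35 and NMI were above 0.

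TBK1, a kinase that activates IRF3 downstream of the sensors, was the 1 gene that rose. Its log2 ratio was 0.66, 0.61, 0.27 and 0.49 on arrays 1 to 4, with a mean of 0.51 ± 0.09 (adjusted p = 0.0429 in limma). All 4 arrays were above 0, and the spread was smaller than for MX1 or ISG15. The call was lost without any 1 array, with an adjusted p between 0.067 and 0.141, with the methods' t-test after Benjamini-Hochberg adjustment (adjusted p = 0.16), with scale normalization (adjusted p = 0.0579) and without the filter on dim probes (adjusted p = 0.0503). The other sensors and their partners did not pass, with IKBKE, a kinase related to TBK1, at -0.11 ± 0.09. STING1, an adaptor of DNA sensing, was well above background on 3 arrays in the channel labelled LIM and on 0 in that labelled HF, so no fold is given.

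Of 10 antiviral effectors, 0 passed, and their median log2 ratio was 0.09. IFIT5, which binds viral RNA, had a mean log2 ratio of 0.46 ± 0.13 (adjusted p = 0.102) and was above 0 on all 4 arrays, and SAMHD1, which degrades nucleotides needed by viruses, had -0.30 ± 0.10. RSAD2, which encodes viperin, and XAF1, a pro-apoptotic protein, were chosen after their values were seen. RSAD2 had log2 ratios of 1.60, 1.32, -0.22 and 0.31 on arrays 1 to 4, and XAF1 had 0.80, 1.32, -0.61 and 0.40. Both were thus highest on arrays 1 and 2 and lowest on array 3, and neither passed (adjusted p = 0.217 and 0.389). A second, dimmer probe of RSAD2 had 0.80, 0.77, 0.26 and 0.56 with an adjusted p of 0.0474 in limma.

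The enzymes that attach ISG15 to proteins did not move as 1 group. UBA7, the activating enzyme, had log2 ratios of 1.43, 1.49, -0.43 and 0.88 on arrays 1 to 4, and HERC6, a ligase of this pathway in mice, had 0.89, 1.02, -0.35 and 0.52. A dimmer probe of HERC6 had a mean log2 ratio of 0.21, against 0.52 for the brighter one. UBE2L6, the conjugating enzyme, was below 0 on all 4 arrays, at -0.33, -0.92, -0.79 and -0.18. None of the 7 measured genes of this list passed, with adjusted p of 0.0874 for UBE2L6, 0.192 for UBA7 and 0.241 for HERC6.

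Among 12 genes of antigen presentation by MHC class I, 0 passed, 10 had their lowest ratio on array 3, and the list medians were -0.02, 0.04, -0.72 and -0.37 on arrays 1 to 4. BOLA, which encodes a heavy chain that pairs with the product of B2M, had log2 ratios of 0.10, 0.28, -2.01 and -0.90, and PSMB9, a subunit of the immunoproteasome, -0.19, 0.12, -1.92 and -0.89. Both were chosen after their values were seen, and both were near 0 on arrays 1 and 2 and low on arrays 3 and 4, whereas B2M was near 0 on array 4. Probes of class I heavy chains may also read related genes of this family. PDIA3, PSME1 and TAPBPL, which help to make or load the peptides, had mean log2 ratios of -0.28 ± 0.10, -0.31 ± 0.11 and -0.36 ± 0.16, and were above 0 with median centring.

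The 7 measured guanylate-binding proteins and interferon gamma targets all had their lowest ratio on array 3, with list medians of 0.28, 0.28, -1.65 and -0.80 on arrays 1 to 4. ICAM1, an adhesion molecule for leukocytes, was the 1 gene that fell, with log2 ratios of -0.38, -0.67, -0.997 and -0.87 and a mean of -0.73 ± 0.12 (adjusted p = 0.0394 in limma). Its call was lost without any 1 array, with an adjusted p between 0.06 and 0.137, without the filter on dim probes (adjusted p = 0.0512) and with the methods' t-test after Benjamini-Hochberg adjustment (adjusted p = 0.164). Both TBK1 and ICAM1 were called by the methods' t-test at its own unadjusted p and fold. CCL5, a chemokine for T cells, had -0.28, -0.20, -2.64 and -2.27, and IDO1, which degrades tryptophan, -0.60, -0.07, -2.04 and -0.94. CXCL10, a chemokine named for its induction by interferon gamma and chosen here after its values were seen, had 0.44, 0.50, -1.65 and 0.04. The order of the arrays in CXCL10 was that of ISG15, and none of these 3 genes passed.

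**Figure D4:**
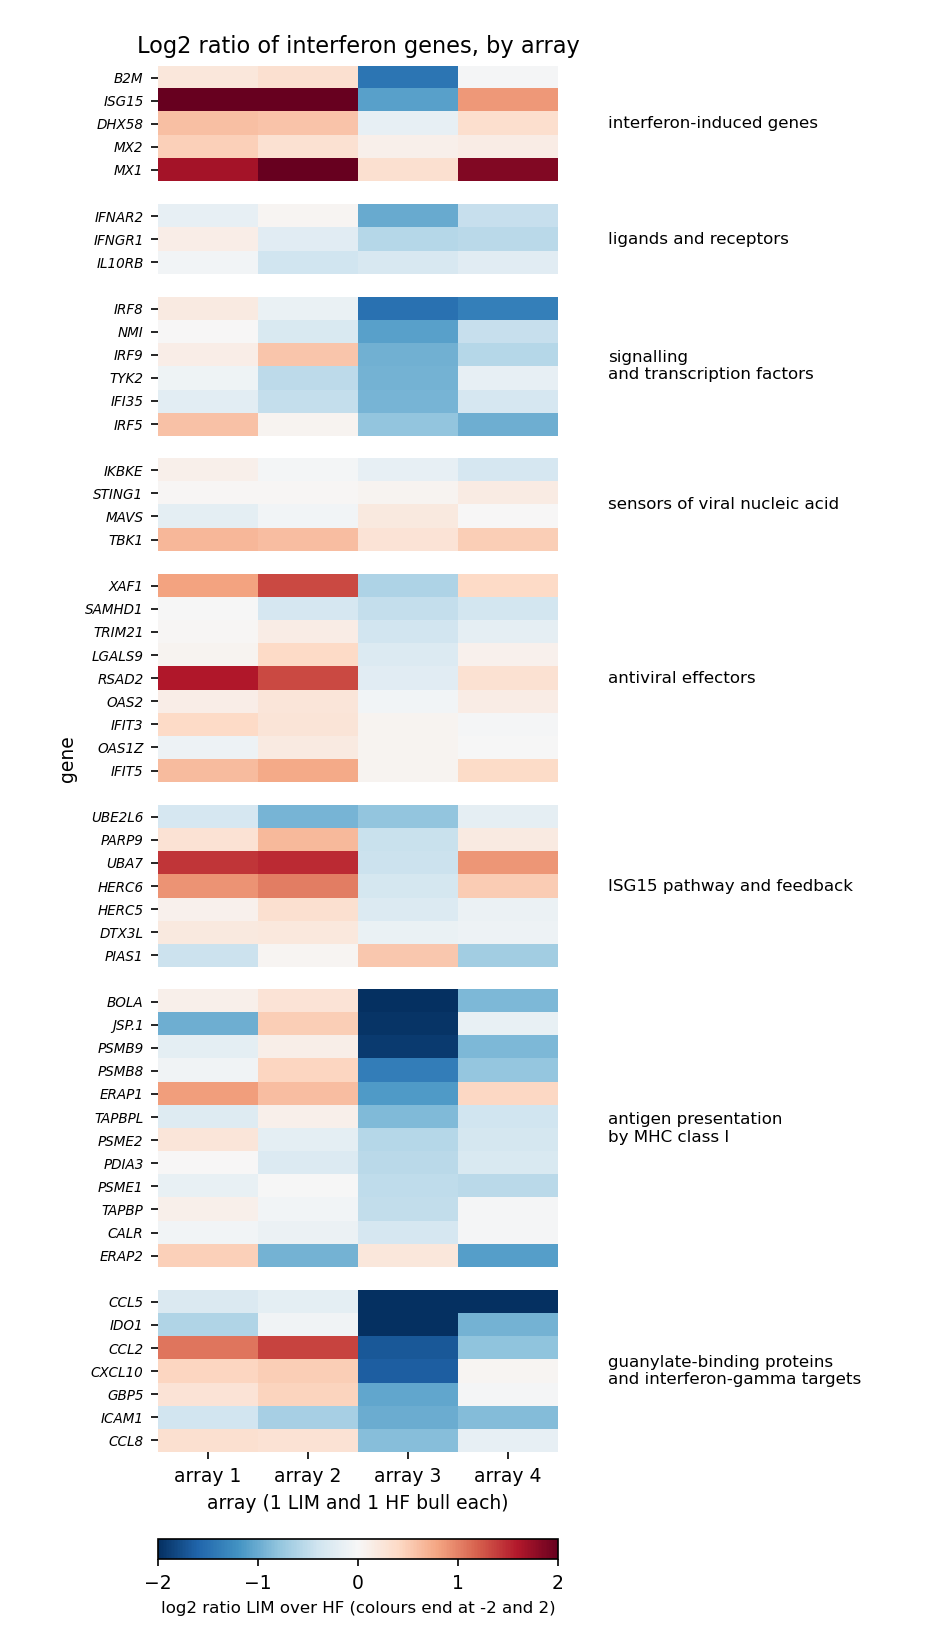
Log2 ratio of LIM signal over HF signal (colour, red above 0 and blue below) for the 5 interferon-induced genes and 48 further genes of the interferon pathway (rows, grouped by list and sorted by array 3) on the 4 arrays (columns). Array 3 holds the lowest ratio in 37 of the 48 further genes drawn, and MX1, ISG15, UBA7 and RSAD2 are red on arrays 1 and 2.

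Markers of immune and vessel cells were low on array 3 in part, and the macrophage markers were as low on array 4. All 6 measured macrophage markers had a ratio below 0 on array 3, among them BOLA-DRA (-2.19), and 3 had their lowest ratio there. CD14, CD68 and FCER1G had theirs on array 4, where BOLA-DRA was at -1.80. The median of the macrophage list was -0.016, -0.006, -0.87 and -0.91 on arrays 1 to 4. The mean log2 signal of this list ranged from 7.86 to 8.29 in the bulls labelled LIM, with the lowest value on array 3, and from 8.26 to 9.24 in the bulls labelled HF. All 6 endothelial markers had their lowest ratio on array 3, with ESAM at -1.07 and EMCN at -0.67, and the mean log2 signal of the list was 7.20 to 8.02 in the bulls labelled LIM and 7.65 to 7.85 in those labelled HF. Of 8 lymphocyte markers 2 had their lowest ratio on array 3, CD3E (-1.02) and CD3G (-0.74). CD8A was at -0.72 there, with its lowest ratio on array 4, and CD4 was at 0.06. The CD4 probe was far brighter, at a mean log2 intensity of 14.2 against 7.08 for CD3E and 6.93 for CD8A. It therefore weighs on the list's mean log2 signal, which was 8.11 to 8.27 in the bulls labelled LIM and 8.20 to 8.39 in those labelled HF. Of the neutrophil markers S100A8 and S100A12 and 3 erythrocyte markers (HBA at 0.38, AHSP at 0.35), 0 had their lowest ratio on array 3. Their mean log2 signals ranged from 7.58 to 8.10 in LIM and 7.51 to 8.65 in HF for the neutrophil list, and from 8.76 to 9.06 in LIM and 8.49 to 9.15 in HF for the erythrocyte list. Of 8 skeletal muscle markers, among the brightest probes and present in all bulls, 4 had their lowest ratio on array 3. There, 4 of the 8 were below 0, and 3 of these were under -1: MYH2 (-1.54), MYH7 (-1.24) and DES (-1.14). ACTA1 was at 1.91, MB at 0.71 and TNNC2 at 0.56. The mean log2 signal of this list was 16.6 to 16.7 in the bulls labelled LIM and 16.5 to 16.8 in those labelled HF. The part of these markers in the interferon values was not tested.

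The genes whose 4 ratios were most like those of ISG15, among 5434 genes with a clear signal in both channels of every array, were RTP4, MYOD1 and UBA7. RTP4, which encodes a receptor transporter protein, had log2 ratios of 1.401, 1.96, -0.27 and 0.75 on arrays 1 to 4 and a root-mean-square difference of 0.71 from ISG15. MYOD1, a transcription factor of muscle cells, had 1.14, 2.11, -0.41 and 0.85 and also differed by 0.71, and UBA7 differed by 0.83. Among the members MX1 was nearest to ISG15, at 0.93. The members' median, which was the DHX58 value on every array, was closest to RNF44 (0.09), SLC40A1, an iron exporter (0.10), and TNPO1, a nuclear import receptor (0.12). With 4 arrays this likeness is a description only.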

How the data were processed

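Two-colour bovine 44K arrays were used, 4 in all. Per the file headers the authors quantified the spots with Feature Extraction 10.7.3.1. The deposited intensity values used here were, for either dye, the spot's median brightness, its local background and the processed signal. The deposited log10 ratios are processed red over green signal. Those in the series value table were identical (largest difference 0, column medians 0, 0, 0 and 0), on the scanner's scale and in its direction.

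Background was corrected with normexp (offset 50), ratios were normalized by loess without control spots, and 5 to 10 flagged spots per array were dropped. Probes well above background in 1 channel on at least 3 arrays were kept, 15855 of 21475. Of 42990 gene spots, 32513 to 33527 per array exceeded background clearly in LIM and 27102 to 28769 in HF, and 0 were saturated; the number of arrays limits the precision. Mean log2 ratios were tested against 0 (two-sided) in limma 3.58.1 (R 4.3.3) and p-values adjusted by Benjamini-Hochberg across all probes kept, after a test on simulated data. Log2 signals of single channels come from Aquantile after loess. Genes were named through RefSeq accessions (ARS-UCD2.0) for 8297 probes; the array design uses another build, so no coordinates are given. Apart from the members, up to 3 genes per pathway list by the smallest unadjusted p, 1 or 2 per marker list by brightness or p, and the 3 genes of nearest pattern were named, and 5 genes after their values were seen; 1 gene named by this rule is not reported here. The members and lists were chosen with earlier results of these data known. Alternatives were other background corrections, signals, normalizations, filters, models and probe rules, unpaired channels, the methods' t-test and leaving out each array.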

Additional observations from a re-analysis of the deposited data

Results flagged for a closer look

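Among 63 values checked over the 4 arrays, Dixon's ratio set 1 array or bull apart in 3, close to the 3.15 that chance alone would give. The MX2 signal in the channel labelled HF had a ratio of 0.894, with 6.58 in the bull of array 1 against 6.44 to 6.45 in the others. The ISG15 signal in the channel labelled HF had 0.859, with 7.11 in the bull of array 2 against 8.07 to 8.23 in the others. The log2 ratio of S100A12, a neutrophil marker, had 0.889, with 0.73 on array 3 against -0.52 to -0.38 on the others.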

How the results depend on the processing

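Of 93 values of the members under 19 alternatives, 81 kept their sign and their side of the threshold, among them 5 under Aquantile, which leaves ratios as they are. The number of members called was 0 with limma as reported and 1, MX1, under 10 alternatives: offset 16, no background subtraction, processed signals, the series value table, median centring, the filter on both channels, weighted arrays, a robust fit with the variance trend on mean intensity, the methods' t-test with its fold, and without array 3. The counts without each array ranged from 0 to 1. The cause was not tested. The members' median log2 ratio was 0.86 with processed signals or the series value table and 1.19 with the filter on both channels, which left 3 members, and ranged from 0.25 to 0.50 without each array.

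In the other interferon lists 2 genes were called, against 4 with median centring, 1 with scale normalization, 0 without the filter, 0 with the adjusted t-test and 0 to 0 without each array. Over all probes limma called 868, against 3800 with median centring, 1336 with processed signals, 1347 with the series value table, 1310 with the trend and robust fit, 1479 with the t-test and fold, 1 with the adjusted t-test, and 0, 0, 51 and 0 without arrays 1 to 4. Median centring moved the median of all genes to 0.35 and the share of calls that were higher to 92.8%, against 54.1% with loess. It turned the sign of B2M (0.47), IL10RB (0.12), IFNGR1 (0.16), IFI35 (0.095), TYK2 (0.10), NMI (0.052), PDIA3 (0.22), PSME1 (0.31), TAPBPL (0.12), BOLA (0.075) and CXCL10 (0.081). Without array 3 the sign turned for B2M (0.18) and CXCL10 (0.32), and over all leave-outs B2M ranged from -0.42 to 0.18 and CXCL10 from -0.39 to 0.32.

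The reported fit is paired, since each ratio compares the 2 bulls of an array. Without this pairing (unpaired channels, no replicate block) limma called 0 members and 1091 probes. Dim probes such as MX2 and DHX58 limit what can be measured.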
